A study of Capra hircus with 9 samples.

Results

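The proteasome is the protease complex that degrades ubiquitin-tagged proteins, and its subunit genes, named PSMA to PSMG, were followed here in the rumen epithelium of goats. The set holds every gene whose name begins with PSM, a letter from A to G and a digit, and that is listed in all 9 files, without the immunoproteasome genes PSMB8, PSMB9 and PSMB10. It has 43 members among the 18383 genes named in the files. They are 7 genes of the alpha ring and 7 of the beta ring of the 20S core, 5 ATPase and 3 non-ATPase genes of the base and 8 genes of the lid of the 19S particle, 4 activators, 1 inhibitor and 7 assembly chaperones. The remaining member, PSMC3IP, matched by name but encodes a protein of meiotic recombination and is no proteasome subunit, so it is described apart. The testis form of the alpha ring, PSMA8, was listed in only 4 files (0.193 FPKM in HC1, 0.0779 FPKM in HC2, 0.403 FPKM in LC1 and 0.0901 FPKM in LC2) and was left out. PSMC3, an ATPase of the base, was listed under that name in no file and so was not analysed.

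The goats were 4 months old and received 1 of 3 concentrate diets labelled HC, MC and LC, whose composition the labels do not give. RNA was sequenced in 3 libraries per diet, numbered HC1 to HC3, MC1 to MC3 and LC1 to LC3. The labels do not tell whether the libraries of a diet stem from different goats. P-values therefore measure only the spread between these libraries, which may be technical. Values are FPKM, which corrects for transcript length and library size, so levels of different genes can be set beside each other, and the number of reads behind a value is unknown. Ranks of level within a class refer to the mean over the 9 libraries.

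In the proteasome, outer alpha rings guard the entrance of a barrel whose inner beta rings carry the cutting sites on PSMB5, PSMB6 and PSMB7. The 19S particle caps the barrel: its lid removes ubiquitin, its base binds tagged proteins and its ATPases unfold and feed them in. Other caps, the PA28 and PA200 activators, open the barrel without ubiquitin, and dedicated chaperones assemble the rings and the base. In stratified epithelia such as the rumen lining the proteasome clears short-lived regulators and damaged proteins while cells divide, differentiate and are shed.

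The libraries differed in ways that touch these values. KRT5 led the 7 epithelial marker genes analysed with 2696 to 4803 FPKM, and their sum was 5388 to 7919 FPKM in HC, 6618 to 7975 FPKM in MC and 5081 to 7851 FPKM in LC. Single markers moved more: KRT4, a keratin of suprabasal cells, had 16.1 to 29.2 FPKM in HC, 1.65 to 2.25 FPKM in MC and 31.6 to 69.8 FPKM in LC, and SFN, also known as stratifin, had 533 to 763 FPKM in HC, 983 to 1264 FPKM in MC and 466 to 702 FPKM in LC. The part of such epithelial differences in the proteasome values was not tested. All 10 smooth muscle markers were listed in every library, and their sum was 115 to 149.8 FPKM in HC, 1185 to 3666 FPKM in MC and 60.4, 1300.1 and 2423 FPKM in LC3, LC2 and LC1. Markers of fibroblasts summed to 508 FPKM in LC1 against 120 to 313 FPKM elsewhere, those of endothelium to 48.3 against 12.9 to 26.9 FPKM, and those of macrophages to 31 to 40.2 FPKM in HC, 18.9 to 27.7 FPKM in MC and 58.7 to 67.9 FPKM in LC. In bulk tissue, fewer cells of a type and less RNA per cell cannot be told apart. LC1 also had the lowest FPKM sum, 756030 against 903418 to 1051180 in the others. The median log2 change over all 11668 genes tested was -0.0067 in MC minus LC, against -0.105 for HC minus MC and -0.104 for HC minus LC.

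The proteasome genes stood highest under the MC diet. Together the 43 members made up 0.357% to 0.381% of the FPKM of named genes in the HC libraries, 0.444% to 0.464% in the MC libraries and 0.382% to 0.397% in the LC libraries. The MC libraries therefore lay apart from all others on this share, while HC1 and LC2 nearly met. The 14 core genes alone took 0.175% ± 0.0141 of the sum in HC, 0.233% ± 0.00911 in MC and 0.174% ± 0.0107 in LC (SD, n = 3 each). The 16 genes of the 19S particle took 0.0909% ± 0.00354, 0.118% ± 0.00502 and 0.0915% ± 0.00349 in the same diets (SD, n = 3 each). The mean was highest in MC for 37 members, in LC for 4 and in HC for 2, whereas over all genes tested MC was highest for 38.5%. For 20 members each MC library lay above every HC and LC library, and for 2, PSMD13 and PSMG4, each lay below, against 15.1% and 8.46% of all genes.

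**Figure D1:**
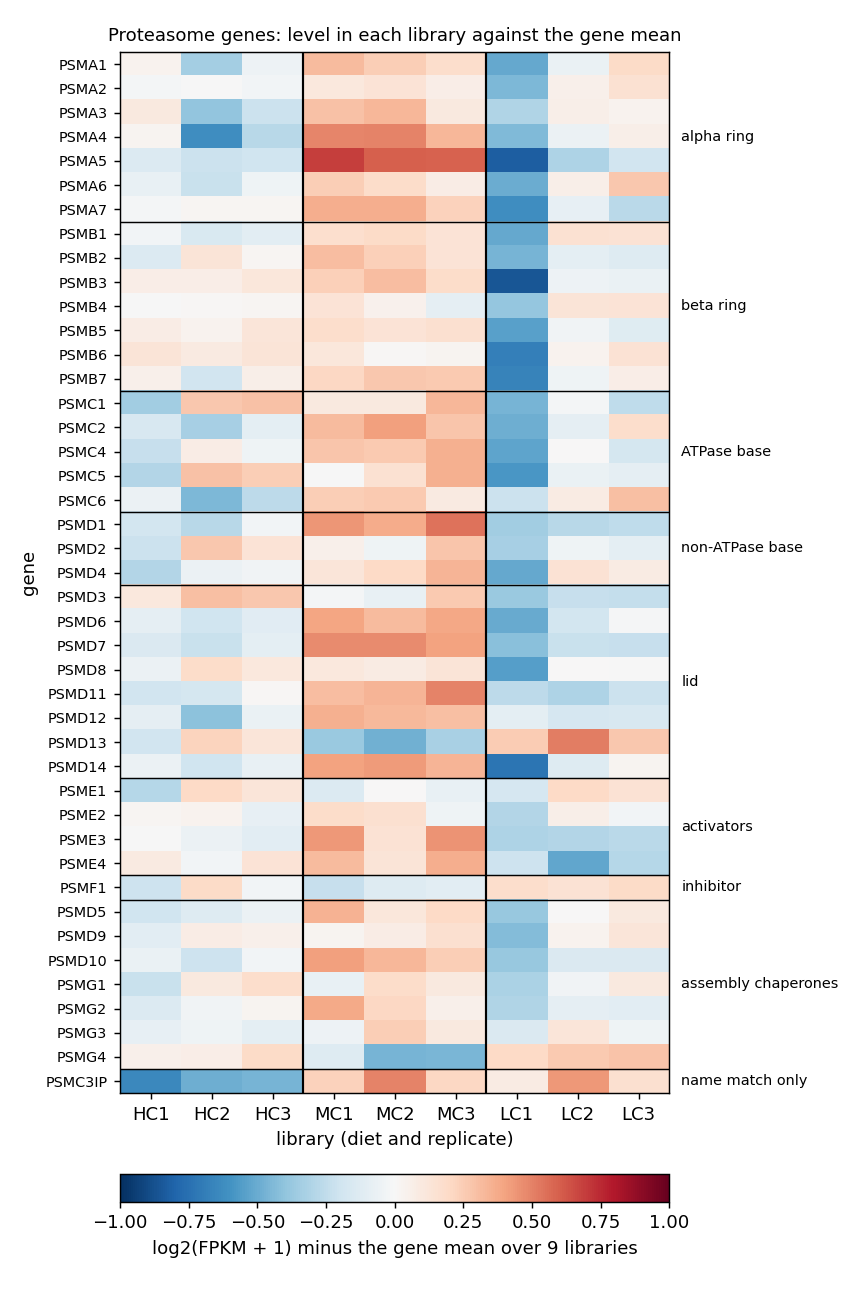
Level of each of the 43 genes in each library (columns, HC, MC and LC with 3 libraries each), as log2(FPKM + 1) minus the gene's mean over 9 libraries, with genes grouped by their place in the complex. Red is above and blue below the gene mean. The 3 MC columns are mostly red, the LC1 column is mostly blue, and PSMD13 and PSMG4 run the other way.

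**Figure D2:**
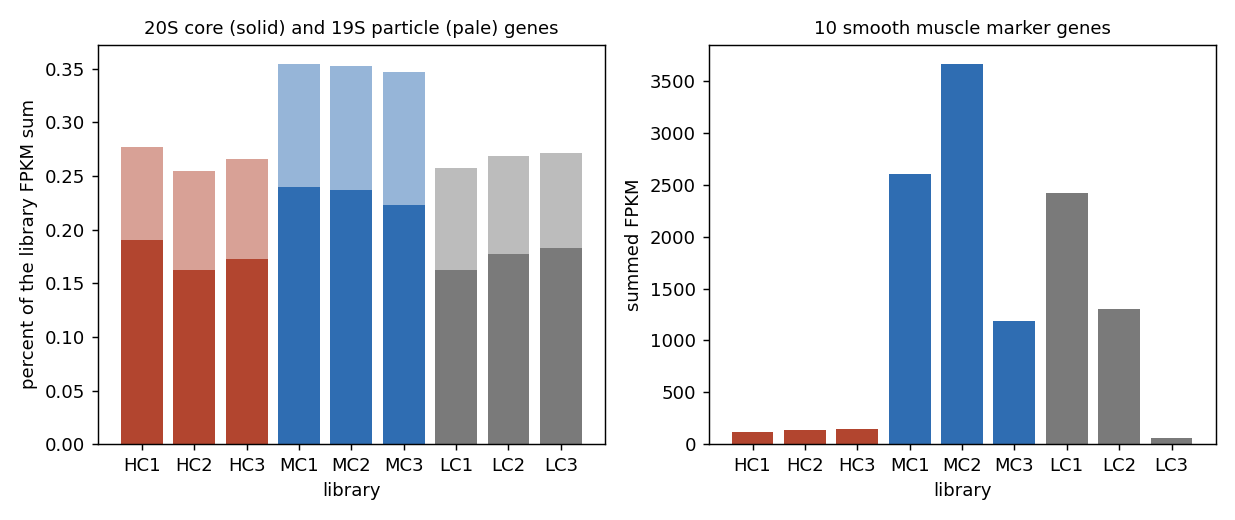
Left, the 14 core genes (solid) and the 16 genes of the 19S particle (pale) as percent of the library's FPKM sum, 1 bar per library. Right, the summed FPKM of 10 smooth muscle marker genes in the same libraries. The proteasome share is highest in the 3 MC libraries, and the muscle sum is high in MC, LC1 and LC2 and low in HC and LC3.

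Differences were tested with limma on log2(FPKM + 1), with p-values adjusted over all genes tested, and a gene passed at an adjusted p under 0.05. Among the diets 18 of the 43 members passed the F test, against 45.2% of all genes, so the number that differed was near the background. The direction was not: in MC minus LC 17 members rose and 2 fell, against 33.4% of all genes called (16.2% higher and 17.1% lower in MC). The median log2 change of the members was 0.37 in MC minus LC, against -0.0067 for all genes, and 39 of the 43 changes were above 0, against 49.4% of all genes. In HC minus MC 12 members fell and 2 rose, against 25.0% of all genes called (17.0% lower and 8.0% higher in HC), with a median of -0.26 against -0.105 for all genes. These contrasts share the MC libraries. Fewer members differed between HC and LC. In HC minus LC 2 members rose and 1 fell, against 25.2% of all genes called (7.79% higher and 17.4% lower in HC), with a median of 0.104 against -0.104 for all genes. Changes above 0 numbered 28 of 43 there, against 38.4% of all genes, and 6 of 43 in HC minus MC, against 39.6%.

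Separation of the libraries gave the same order. All MC libraries lay above all LC libraries for 26 members and below for 3, against 47.1% of all genes apart in either direction (23.8% higher and 23.4% lower in MC). All HC libraries lay below all MC libraries for 27 members and above for 2, against 46.4% of all genes (31.6% lower and 14.7% higher in HC). All HC libraries lay above all LC libraries for 8 members and below for 3, against 40.6% of all genes (13.3% higher and 27.4% lower in HC).

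**Figure D3:**
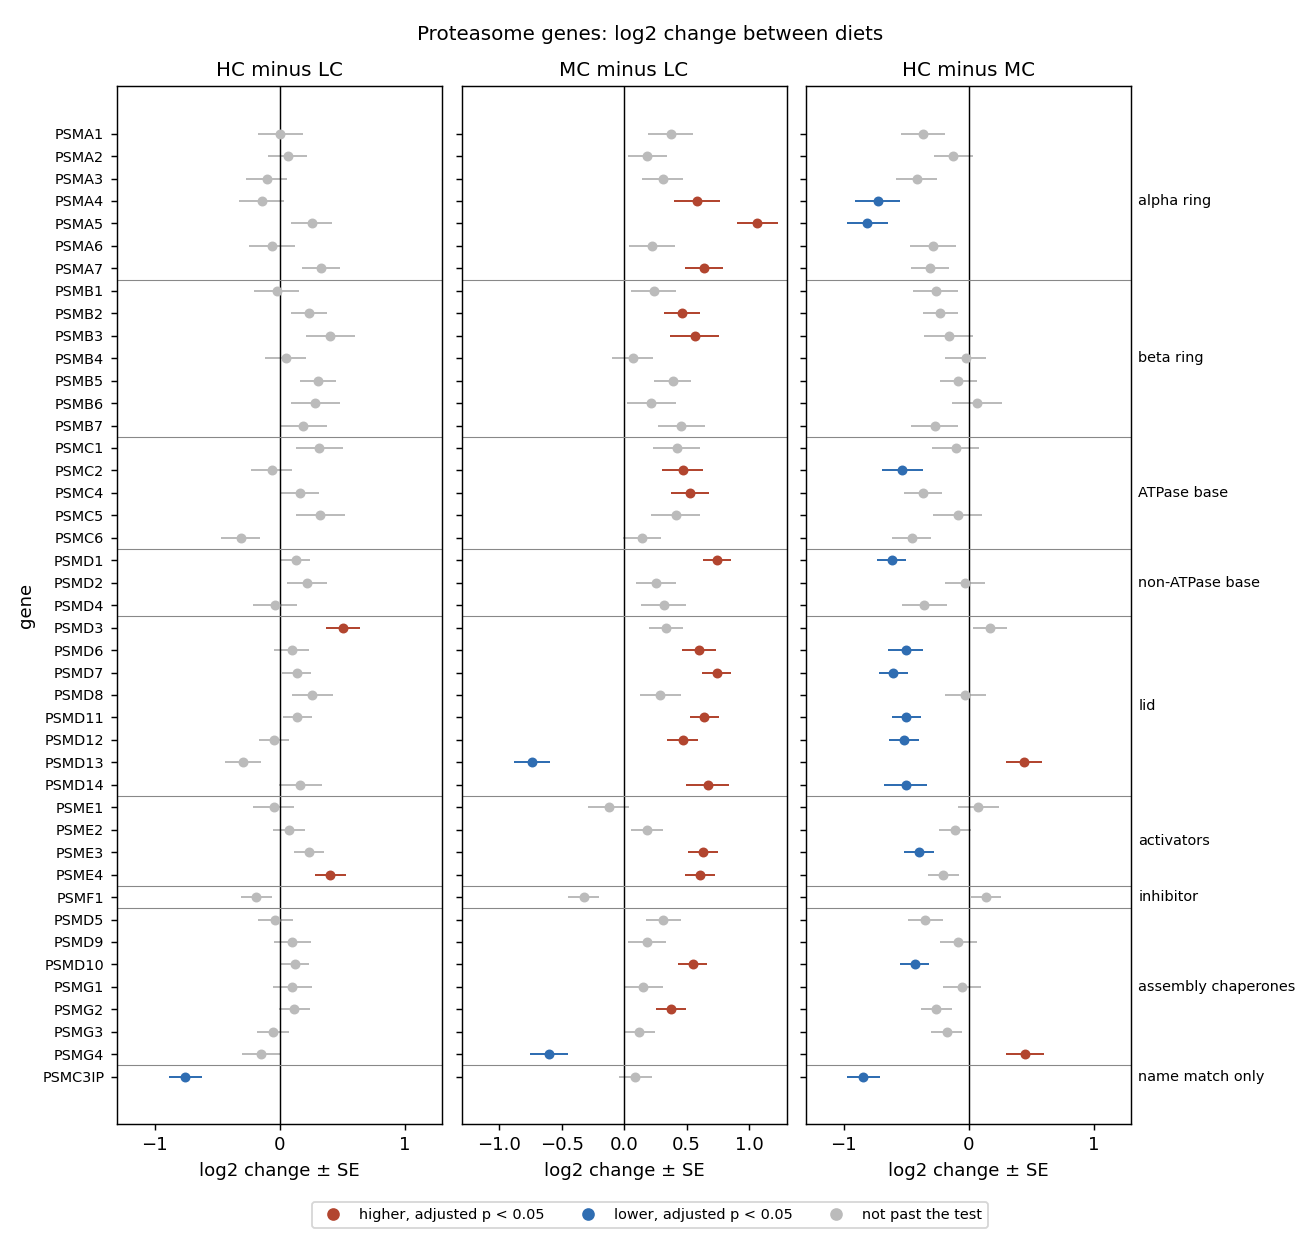
Log2 change ± SE of each of the 43 genes in the 3 contrasts, grouped as in the complex, from the limma fit of all 9 libraries. Red points rose and blue points fell past the test, and grey points did not pass. In MC minus LC 17 points are red and 2 blue, in HC minus MC 2 are red and 12 blue, and in HC minus LC 2 are red and 1 is blue.

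The counts changed when LC1 was left out or when muscle markers were taken into account. LC1 lay below LC2 and LC3 for 39 of the 43 members and for 5708 of the 11668 genes tested. Its level was a median 0.749 of the mean of LC2 and LC3 for the members, 0.673 for the core genes and 0.944 for all genes. The FPKM sum was also lowest in LC1. As a share of that sum the members were not low there, with 0.397% in LC1, 0.382% in LC2 and 0.386% in LC3. The core genes took 0.162%, 0.178% and 0.183% of the sum in the same libraries. Without LC1, 16 members passed in MC minus LC (14 rose, 2 fell, median 0.23) and 22 in HC minus MC (20 fell, 2 rose). All genes called were then 4043 in MC minus LC and 4066 in HC minus MC, against 3894 and 2917 with all libraries. With LC3, the library lowest in muscle markers, as the only LC library, 9 passed in MC minus LC (7 rose, 2 fell, median 0.19) and 1 in HC minus LC. All genes called were then 2322 in MC minus LC and 1379 in HC minus LC, in a fit where the single LC library is assumed to vary like the HC and MC libraries. The calls then lost in MC minus LC were those of PSMA4, PSMB2, PSMB3, PSMC2, PSMC4, PSMD6, PSMD10, PSMD12, PSMD14 and PSMG2. Among them the log2 change was then 0.47 ± 0.16 for PSMC4, 0.47 ± 0.15 for PSMD10 and 0.49 ± 0.17 for PSMD12. These were close to the values with all LC libraries. Lower values were 0.16 ± 0.16 for PSMC2, 0.37 ± 0.15 for PSMD14, 0.38 ± 0.22 for PSMA4 and 0.36 ± 0.16 for PSMB2. With all LC libraries PSMA4 had 0.58 and PSMB2 0.46. Over the 23 alternatives the lowest change was 0.301 for PSMB3 and 0.38 for PSMD6, against 0.57 and 0.599 in the main fit. With the muscle marker mean as a covariate, 22 passed in MC minus LC (20 rose, 2 fell, median 0.44) and 8 in HC minus MC (8 fell, median -0.48). All genes called were then 3788 in MC minus LC and 1076 in HC minus MC. The muscle markers were low in every HC library, so in HC minus MC this covariate is partly confounded with diet. The SE of PSMA4 in that contrast grew from 0.18 to 0.26 with the covariate. The members' calls then lost in HC minus MC were those of PSMD10, PSMD11, PSMD12, PSMD13, PSME3 and PSMG4 (adjusted p = 0.070998 to 0.289).

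The scale also mattered for the split in HC. With libraries scaled to the same sum, 3 members fell and 1 rose in HC minus LC and 24 fell and 0 rose in HC minus MC. With median-of-ratios scaling 5 rose and 1 fell in HC minus LC and 8 fell and 2 rose in HC minus MC. In MC minus LC the same scalings gave 26 and 19 rises and 2 falls each, whereas scaling to the core genes, described further on, gave 1 rise and 15 falls. The median of the members in HC minus LC took the opposite sign with the same sum (-0.0301), without LC1 (-0.029), with LC3 alone (-0.0301) and with the muscle covariate (-0.015).

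In the alpha ring, which forms the gate of the barrel, 3 of 7 genes rose in MC minus LC (PSMA4, PSMA5 and PSMA7) and 2 fell in HC minus MC (PSMA4 and PSMA5). These are 42.9% and 28.6% of the ring, against 33.4% and 25.0% of all genes called (16.2% higher in MC and 17.0% lower in HC). PSMA5 (chromosome 3, 31922476 to 31938724) had 108, 102 and 103 FPKM in HC, 192, 179.8 and 179 FPKM in MC and 66.5, 95.5 and 104 FPKM in LC. All MC libraries exceeded all others, which overlapped in range. Its log2 change of 1.07 ± 0.17 (SE) in MC minus LC was the largest of any member (adjusted p = 5.75e-04), and in HC minus MC it fell (log2 change -0.81 ± 0.17, adjusted p = 0.00545). Both calls held in all 23 alternatives other than scaling to the core genes.

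PSMA7, the most abundant gene of the alpha ring over all libraries but below PSMA6 in each LC library, had 137, 141 and 141 FPKM in HC, 179, 179 and 163 FPKM in MC and 90.03, 131 and 115 FPKM in LC. It rose in MC minus LC (log2 change 0.64 ± 0.15, adjusted p = 0.00736), while the HC libraries, close to each other at 137 to 141 FPKM, did not differ from LC or MC past the test (adjusted p = 0.132 and 0.153). PSMA4, the least abundant of the ring, had 59.5, 37.6 and 47.9 FPKM in HC, 82.05, 82.5 and 73.6 FPKM in MC and 42.6, 55.9 and 60.8 FPKM in LC. It was higher in each MC library than in any other library (log2 change 0.58 ± 0.18, adjusted p = 0.026997 in MC minus LC, log2 change -0.72 ± 0.18, adjusted p = 0.0139 in HC minus MC). The call was lost in MC minus LC without MC1, MC2 or LC1 (adjusted p = 0.0655 to 0.0835) and in HC minus MC without HC2, MC1 or MC2 (adjusted p = 0.0511 to 0.0593). The other alpha genes, PSMA1, PSMA2, PSMA3 and PSMA6, had their highest mean in MC and passed in no contrast, with log2 changes of 0.19 to 0.37 in MC minus LC.

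In the beta ring, which holds the cutting sites, 2 of 7 genes rose in MC minus LC. That is 28.6% of the ring, against 33.4% of all genes called (16.2% higher in MC). In HC minus LC and HC minus MC 0 passed, against 25.2% and 25.0% of all genes called. Limma also gave an unadjusted p under 0.05 there for 0 and 0 of the 7. PSMB3, a structural subunit, had 154, 154 and 159 FPKM in HC, 174, 182 and 167 FPKM in MC and 80.9, 142 and 141 FPKM in LC. LC1 lay far below the rest, and the gene rose in MC minus LC (log2 change 0.57 ± 0.197, adjusted p = 0.0447). PSMB2, another subunit without a cutting site and the least abundant of the ring, had 71.9, 86.6 and 80.2 FPKM in HC, 98.2, 93.7 and 87.2 FPKM in MC and 56.98, 73.7 and 72.1 FPKM in LC. It rose as well (log2 change 0.46 ± 0.14, adjusted p = 0.0266). In both genes every MC library lay above every other library. The call was lost for PSMB3 without HC1, HC2, HC3, MC1, MC2 or MC3 (adjusted p = 0.0546 to 0.124) and for PSMB2 without MC1 or MC2 (adjusted p = 0.0756 to 0.0965).

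The catalytic genes passed in no contrast. PSMB5, which carries the chymotrypsin-like site, had 96.3, 93.5 and 99.5 FPKM in HC, 103, 101 and 102 FPKM in MC and 62.6, 89.3 and 83.9 FPKM in LC. Its MC libraries lay above all others, but the change in MC minus LC was 0.39 with a 95% interval of 0.068 to 0.71 (adjusted p = 0.0611). PSMB6, which carries the caspase-like site and was the most abundant core gene, had 237, 231 and 237 FPKM in HC, 234, 218 and 220.3 FPKM in MC and 134, 221 and 239.9 FPKM in LC. It was level across diets apart from LC1, and the interval of HC minus MC was -0.36 to 0.498 on the log2 scale. PSMB7, which carries the trypsin-like site, had 181, 153 and 183 FPKM in HC, 202, 211 and 209.8 FPKM in MC and 109.7, 170.01 and 183 FPKM in LC. MC lay above HC and LC and the interval of MC minus LC was 0.051 to 0.87.

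The immunoproteasome genes, which replace these subunits when interferon acts, had another order of diets. As a percent of its standard counterpart in the same library, which no scaling changes, PSMB8 over PSMB5 was 3.28% ± 0.824 in HC, 2.83% ± 1.31 in MC and 16.1% ± 4.84 in LC (SD, n = 3 each). PSMB9 over PSMB6 was 2.14% ± 0.139 in HC, 2.18% ± 0.982 in MC and 6.57% ± 1.69 in LC (SD, n = 3 each). PSMB10 over PSMB7 was 37.1% ± 5.702 in HC, 16.6% ± 1.09 in MC and 18.1% ± 1.89 in LC. The HC and MC libraries lay below all LC libraries for the first 2 ratios, and the HC libraries lay above all others for the last. An exact two-sided permutation test gave p = 0.1 for each of these separations (0.15 adjusted over the 9 comparisons). Any full separation of 3 against 3 libraries gives this p, the smallest possible, so this test cannot decide whether the ratios differ. By limma on the single genes, PSMB8 and PSMB9 fell in HC minus LC (log2 change -1.68 and -1.15, adjusted p = 0.00111 and 0.00282). Both fell in MC minus LC too (log2 change -1.83 and -1.26, adjusted p = 4.15e-04 and 0.00112). PSMB10 rose in HC minus LC and HC minus MC (log2 change 1.19 and 0.86, adjusted p = 5.11e-04 and 0.00419). Their other contrasts did not pass. In the same libraries 15 interferon response genes summed to 66.4 to 77.3 FPKM in HC, 102 to 114 FPKM in MC and 197 to 211 FPKM in LC. Of 5 T and NK cell markers tested 4 fell and 1 rose in HC minus LC. CD3E, of the T cell receptor complex, had 0.201 to 0.763 FPKM in HC, 0.209 to 0.831 FPKM in MC and 3.51 to 3.77 FPKM in LC, and NKG7, of cytotoxic cells, had 9.22 to 15.01 FPKM in HC, 7.98 to 9.22 FPKM in MC and 2.78 to 3.04 FPKM in LC. The part of these genes and of the macrophage markers in the ratios was not tested.

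**Figure D4:**
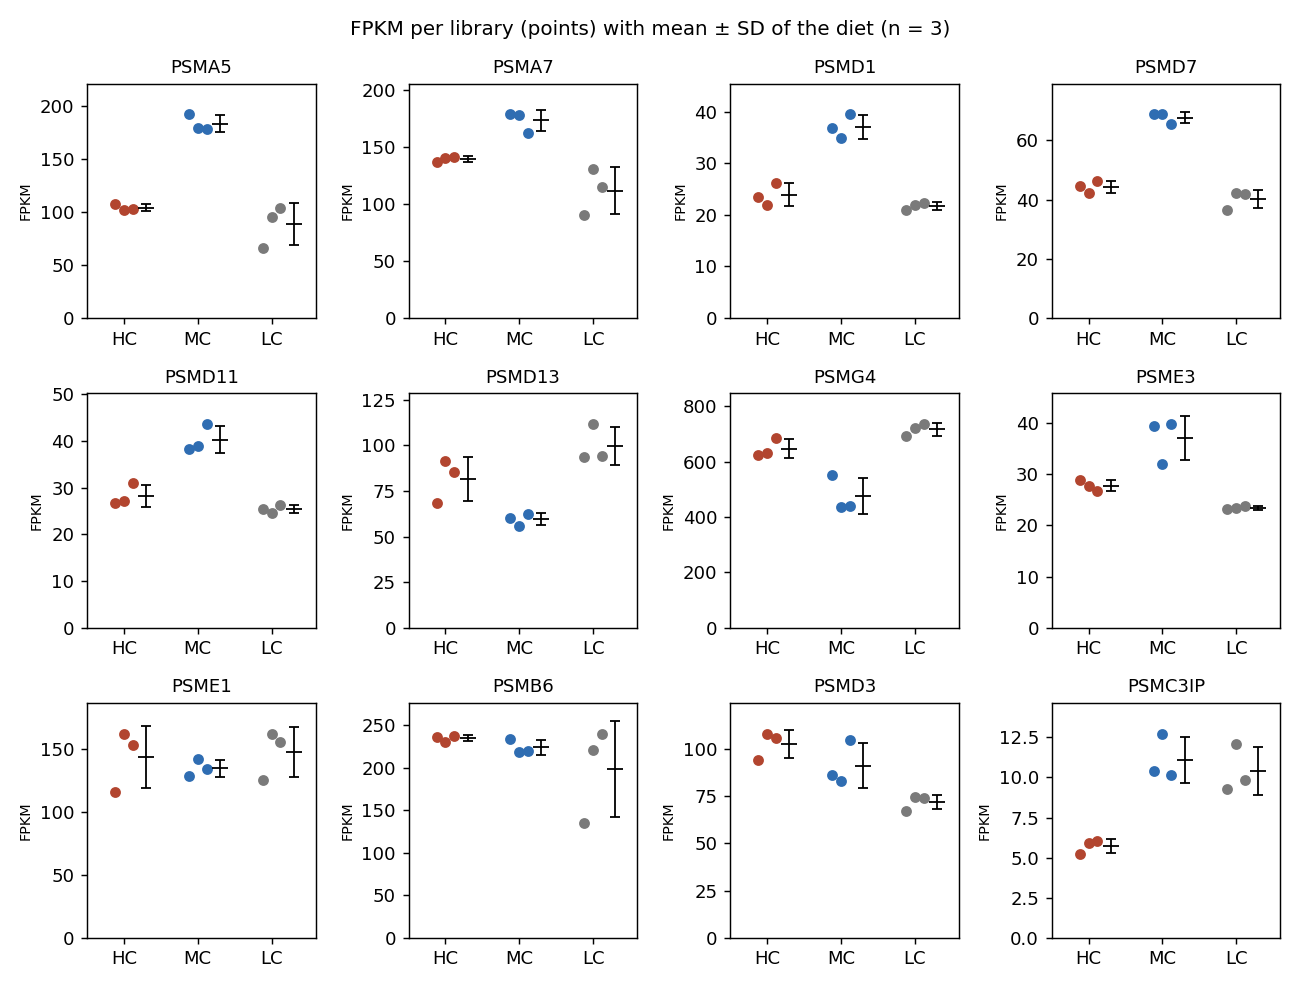
FPKM of 12 of the genes in each library (points) with the mean ± SD of the diet (n = 3), HC, MC and LC from left to right, each axis starting at 0. PSMA5, PSMD1, PSMD7, PSMD11 and PSME3 are highest in all 3 MC libraries, PSMD13 and PSMG4 are lowest there, PSMC3IP is lowest in HC, and PSMB6 is level apart from LC1.

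In the base of the 19S particle, 2 of 5 ATPase genes and 1 of 3 non-ATPase genes rose in MC minus LC. That is 40% and 33.3% of these genes, against 33.4% of all genes called (16.2% higher in MC). PSMD1 (chromosome 2, 118291789 to 118370993), the scaffold that carries other base and lid proteins, had 23.5, 21.9 and 26.2 FPKM in HC, 36.8, 34.9 and 39.5 FPKM in MC and 20.9, 21.9 and 22.3 FPKM in LC. The MC libraries lay above all others, and the gene rose in MC minus LC (log2 change 0.74 ± 0.11, adjusted p = 5.58e-04). It fell in HC minus MC (log2 change -0.61 ± 0.11, adjusted p = 0.00338). The files place HTR2B within the same locus, so reads of the pair could be split. The second large scaffold, PSMD2, which docks proteins that deliver ubiquitin-tagged cargo, had 64.7, 91.2 and 83.1 FPKM in HC, 77.96, 73.2 and 91.7 FPKM in MC and 59.6, 73.1 and 70.5 FPKM in LC. It passed in no contrast. PSMD4, a ubiquitin receptor and the most abundant of the non-ATPase base, had 74.1, 87.4 and 89.01 FPKM in HC, 99.5, 105 and 116 FPKM in MC and 63.6, 101 and 96.8 FPKM in LC. It passed in none either, with a 95% interval of -0.072 to 0.71 for the log2 change in MC minus LC.

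Of the ATPases, PSMC4 and PSMC2 rose in MC minus LC (log2 change 0.53 ± 0.15, adjusted p = 0.0187, and log2 change 0.47 ± 0.16, adjusted p = 0.0442), and PSMC2 fell in HC minus MC (log2 change -0.53 ± 0.16, adjusted p = 0.0344). The PSMC4 call was lost without MC1 or MC3 (adjusted p = 0.0508 to 0.0574). Those of PSMC2 were lost in MC minus LC without HC1, HC2, HC3, MC1, MC2, MC3, LC1 or LC2 (adjusted p = 0.0502 to 0.128) and in HC minus MC without HC1, HC2, HC3, MC1, MC2 or MC3 (adjusted p = 0.0563 to 0.116). PSMC1, the most abundant ATPase, had 64.04, 98.7 and 101 FPKM in HC, 87.4, 87.5 and 103 FPKM in MC and 58.9, 80.5 and 68.3 FPKM in LC. PSMC6, the least abundant, had 41.8, 31.7 and 36.2 FPKM in HC, 51.8, 52.4 and 46.5 FPKM in MC and 37.4, 46.05 and 53.9 FPKM in LC. PSMC1 was low in HC1 and PSMC6 was high there, so their HC libraries were spread in opposite ways, and neither gene passed in any contrast.

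Of the 8 genes of the lid, which strips ubiquitin from bound proteins, 5 rose and 1 fell in MC minus LC, and 5 fell and 1 rose in HC minus MC, with median log2 changes of 0.53 and -0.4998, against medians of 0.38 and -0.27 for the 14 core genes. In the core 5 rose in MC minus LC and 2 fell in HC minus MC, which is 35.7% and 14.3% of its genes. The share called in the lid was 75% in each contrast, against 33.4% and 25.0% of all genes. The difference between lid and core was not tested.

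PSMD7 (chromosome 18, 36254964 to 36263288), the partner that holds the deubiquitinase of the lid, had 44.7, 42.1 and 46.2 FPKM in HC, 68.8, 68.8 and 65.5 FPKM in MC and 36.6, 42.1 and 41.9 FPKM in LC. The MC libraries stood clear of all others (log2 change 0.74 ± 0.12, adjusted p = 6.42e-04 in MC minus LC, log2 change -0.601 ± 0.12, adjusted p = 0.00418 in HC minus MC). The deubiquitinase itself, PSMD14, had 24.98, 22.5 and 24.7 FPKM in HC, 34.8, 35.3 and 33.3 FPKM in MC and 15.3, 23.7 and 26.5 FPKM in LC. It rose in MC minus LC (log2 change 0.67 ± 0.17, adjusted p = 0.0105). In HC minus MC it passed narrowly (adjusted p = 0.0498), and 12 of 23 alternatives lost that call, among them those without HC1, HC2, HC3, MC1, MC2, MC3 or LC2 (adjusted p = 0.0601 to 0.139).

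PSMD11, PSMD12 and PSMD6, scaffold proteins of the lid, were also highest in MC. PSMD11 had 26.8, 27.1 and 30.9 FPKM in HC, 38.2, 39.1 and 43.7 FPKM in MC and 25.4, 24.5 and 26.4 FPKM in LC. Every MC library lay above the rest (log2 change 0.64 ± 0.12, adjusted p = 0.00147 in MC minus LC, log2 change -0.498 ± 0.12, adjusted p = 0.00987 in HC minus MC). PSMD12, the least abundant gene of the lid, had 24.03, 19.1 and 24.5 FPKM in HC, 33.1, 32.4 and 31.9 FPKM in MC and 23.95, 22.7 and 22.9 FPKM in LC. It rose in MC minus LC (log2 change 0.47 ± 0.12, adjusted p = 0.0112). In HC minus MC it fell (log2 change -0.51 ± 0.12, adjusted p = 0.0105), a call lost with the muscle marker covariate (adjusted p = 0.136). PSMD6 had 49.7, 46.2 and 48.9 FPKM in HC, 70.2, 66.3 and 69.6 FPKM in MC and 37.1, 46.7 and 52.5 FPKM in LC, and MC was again above all others. It changed in both contrasts (log2 change 0.599 ± 0.14, adjusted p = 0.00633 in MC minus LC, log2 change -0.501 ± 0.14, adjusted p = 0.0226 in HC minus MC). The second call was lost without HC2, HC3, MC1, MC2 or MC3 (adjusted p = 0.0569 to 0.0761).

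PSMD13, also a scaffold protein of the lid, ran against the others (chromosome 29, 48314881 to 48328039, by the other genes of its sequence in the files, since RefSeq's table names no chromosome for it). It had 68.2, 91.2 and 85.3 FPKM in HC, 60.2, 55.8 and 62.3 FPKM in MC and 93.3, 112 and 94.3 FPKM in LC. The MC libraries lay below all others, and the gene fell in MC minus LC (log2 change -0.73 ± 0.15, adjusted p = 0.00255). It was higher in HC than in MC (log2 change 0.44 ± 0.15, adjusted p = 0.0447), a call that 11 of 23 alternatives lost, among them those without HC2, HC3, MC1, MC2, MC3, LC2 or LC3 (adjusted p = 0.05103 to 0.156). The 2 most abundant lid genes overlapped between HC and MC. PSMD3 had 94.2, 108 and 106 FPKM in HC, 86.2, 82.9 and 105 FPKM in MC and 67.4, 74.5 and 73.9 FPKM in LC. It was the only lid gene that rose in HC minus LC (log2 change 0.51 ± 0.14, adjusted p = 0.0193). The call was lost without HC2 or HC3 (adjusted p = 0.0644 to 0.0762), with the muscle covariate (adjusted p = 0.0853) and with LC3 alone (adjusted p = 0.119). PSMD8, the most abundant gene of the lid over all libraries but below PSMD3 in the HC mean and PSMD13 in the LC mean, had 91.4, 108 and 103 FPKM in HC, 102, 101 and 104 FPKM in MC and 64.5, 95.6 and 94.6 FPKM in LC. It passed in no contrast.

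Of the 4 activators 2 rose in MC minus LC, PSME3 and PSME4 (50%, against 33.4% of all genes called). Differences between the activators were not tested. PSME1 and PSME2, the subunits of the interferon-inducible PA28 cap, lie beside each other on chromosome 10 (20538358 to 20542723 and 20531869 to 20535774) and passed in no contrast. PSME1 had 116, 162 and 154 FPKM in HC, 128, 142 and 135 FPKM in MC and 126, 162 and 156 FPKM in LC. PSME2 had 26.3, 26.6 and 24.5 FPKM in HC, 29.6, 29.1 and 25.1 FPKM in MC and 20.96, 27.1 and 25.5 FPKM in LC. The libraries of the diets overlapped for both, and the 95% interval of HC minus LC was -0.403 to 0.31 for PSME1 and -0.203 to 0.35 for PSME2. In MC minus LC the interval was -0.48 to 0.23 for PSME1 and -0.094 to 0.46 for PSME2. For PSME3 and PSME4 it was 0.37 to 0.89 and 0.34 to 0.88, which overlaps that of PSME2. PSME1 exceeded PSME2 in every library although their proteins form a joint ring, and the files place EMC9 in an overlapping locus.

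PSME3 (chromosome 19, 42020347 to 42027991), which forms the nuclear PA28 cap, had 28.9, 27.7 and 26.8 FPKM in HC, 39.4, 32.1 and 39.8 FPKM in MC and 23.2, 23.3 and 23.9 FPKM in LC. All MC libraries lay above all others, and the gene rose in MC minus LC (log2 change 0.63 ± 0.12, adjusted p = 0.00188). It fell in HC minus MC (log2 change -0.398 ± 0.12, adjusted p = 0.0303), where 8 of 23 alternatives lost the call, among them those without HC2, HC3, MC1 or MC3 (adjusted p = 0.07799 to 0.114). PSME4 (chromosome 11, 36038011 to 36134379), the PA200 cap that acts on chromatin, was the least abundant member with 6.802, 6.19 and 7.03 FPKM in HC, 8.097, 7.01 and 8.43 FPKM in MC and 5.33, 4.101 and 5.01 FPKM in LC. It rose in MC minus LC (log2 change 0.61 ± 0.12, adjusted p = 0.00297) and in HC minus LC (log2 change 0.405 ± 0.12, adjusted p = 0.0328). The second call was lost with LC3 alone (adjusted p = 0.203) and without HC1, HC3, LC2 or LC3 (adjusted p = 0.0546 to 0.119). It was also lost with the muscle covariate (adjusted p = 0.119), with libraries scaled to the same sum (adjusted p = 0.251) and in a fit of the HC and LC libraries only (adjusted p = 0.0593). The inhibitor of the core, PSMF1, had 18.4, 24.6 and 20.9 FPKM in HC, 18.1, 19.5 and 19.9 FPKM in MC and 24.3, 23.8 and 24.6 FPKM in LC. It was lowest in MC, with MC minus LC at -0.32 (adjusted p = 0.0605).

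Among the 7 assembly chaperones 2 rose and 1 fell in MC minus LC. That is 42.9% of them, against 33.4% of all genes called (16.2% higher and 17.1% lower in MC). PSMD10, also known as gankyrin, which helps to assemble the ATPase ring, had 15.3, 13.8 and 15.7 FPKM in HC, 21.7, 20.5 and 19.2 FPKM in MC and 12.1, 14.4 and 14.5 FPKM in LC. It changed in both contrasts (log2 change 0.55 ± 0.12, adjusted p = 0.00361 in MC minus LC, log2 change -0.43 ± 0.12, adjusted p = 0.0205 in HC minus MC). The second call was lost without HC2, MC1 or MC2 (adjusted p = 0.0626 to 0.0805), with median-of-ratios scaling (adjusted p = 0.0555) and with quantile normalization (adjusted p = 0.0553). PSMG2, which with PSMG1 starts the alpha ring, had 16.8 ± 1.02 FPKM in HC, 20.3 ± 2.39 FPKM in MC and 15.4 ± 1.31 FPKM in LC (SD, n = 3 each). It rose in MC minus LC (log2 change 0.37 ± 0.12, adjusted p = 0.03396), a call lost without HC3, MC1, MC2, LC1, LC2 or LC3 (adjusted p = 0.0512 to 0.1402). PSMG1, PSMG3, PSMD5 and PSMD9 passed in no contrast, with log2 changes of 0.12 to 0.31 in MC minus LC.

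PSMG4 (chromosome 23, 47583701 to 47586520), the partner of PSMG3 in a chaperone of the alpha ring, stood apart in level and direction. It had 622, 630.4 and 687 FPKM in HC, 549.8, 436 and 439 FPKM in MC and 691, 721 and 735 FPKM in LC. This was the highest level of any member, above that of every core gene in every library, whereas PSMG3 had 38.2 to 50.4 FPKM. The MC libraries lay below all others, and the gene fell in MC minus LC (log2 change -0.5996 ± 0.15, adjusted p = 0.0103). It was higher in HC than in MC (log2 change 0.45 ± 0.15, adjusted p = 0.0484), the second call lost in 14 of 23 alternatives. Leaving out a library ended the first without MC2 (adjusted p = 0.0508) and the second without HC1, HC2, HC3, MC1, MC2, MC3, LC2 or LC3 (adjusted p = 0.0548 to 0.167).

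PSMC3IP (chromosome 19, 41799412 to 41810944), the member with no place in the proteasome, had 5.199, 5.94 and 6.03 FPKM in HC, 10.4, 12.7 and 10.2 FPKM in MC and 9.25, 12.1 and 9.83 FPKM in LC. The HC libraries lay below all others, and it fell in HC minus LC (log2 change -0.76 ± 0.13, adjusted p = 0.001901). It fell in HC minus MC too (log2 change -0.84 ± 0.13, adjusted p = 0.00134). MC and LC did not differ past the test (adjusted p = 0.646). It was the single member that fell in HC minus LC, and its locus overlaps that of MLX. Without it, the set counted 2 rises and 0 falls in HC minus LC and 2 rises and 11 falls in HC minus MC.

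The balance between parts of the complex was read within each library as the ratio of a gene to the median of the 14 core genes, which removes any difference in library scale. That median was 109.7 to 122 FPKM in HC, 154 to 168 FPKM in MC and 84 to 121 FPKM in LC. The levels of the core genes, averaged over the 9 libraries, ran from 60.3 FPKM for PSMA4 to 219 FPKM for PSMB6, those of the 19S particle from 26.1 FPKM for PSMD12 to 96.03 FPKM for PSMD8, and those of the activators from 6.44 FPKM for PSME4 to 142 FPKM for PSME1. Core genes were thus mostly more abundant than genes of the particle they bind.

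**Figure D5:**
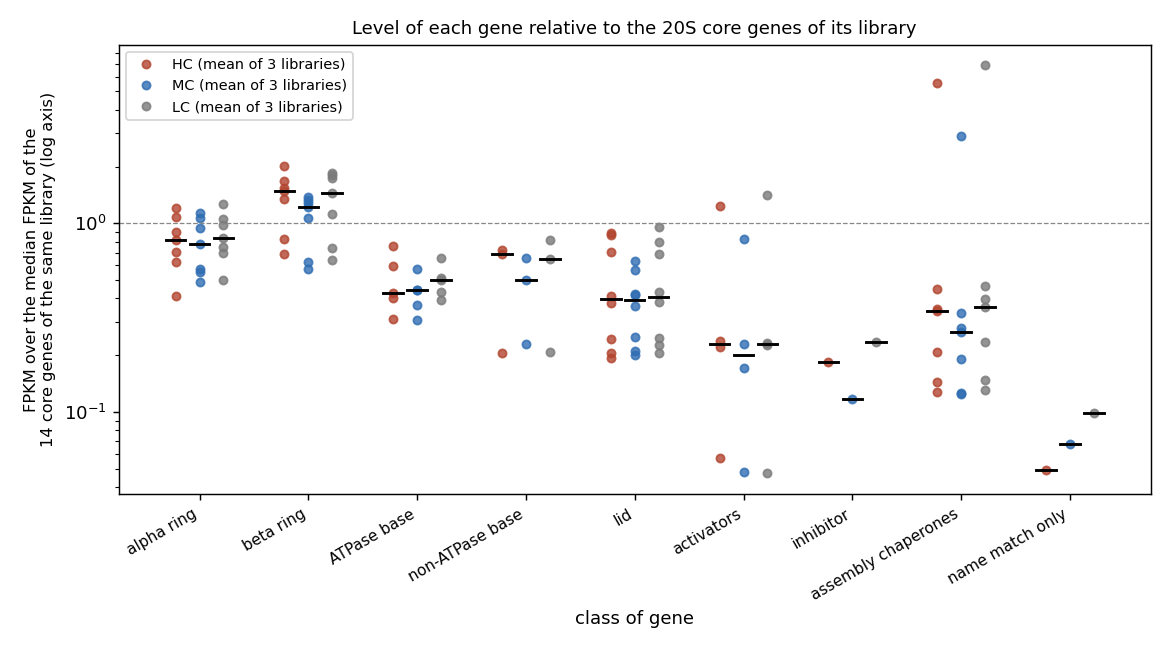
Mean FPKM ratio of each gene to the median of the 14 core genes of the same library (log axis), for HC, MC and LC (n = 3 libraries each), by place in the complex. Black bars are medians of the class. PSMG4 lies above 1 in every diet at 5.55 in HC, 2.91 in MC and 6.904 in LC, and most genes of the 19S particle lie below 1.

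The mean ratios of several lid genes differed between diets by less than the spread of the LC libraries. PSMD6 stood at 0.414 ± 0.00726 of the core median in HC, 0.423 ± 0.0285 in MC and 0.431 ± 0.0424 in LC (SD, n = 3 each). PSMD14 stood at 0.206 ± 0.00264, 0.212 ± 0.00492 and 0.204 ± 0.0279 in the same diets, and PSMD11 at 0.243 ± 0.0218, 0.249 ± 0.0312 and 0.246 ± 0.0514 (SD, n = 3 each). Other lid genes differed more. PSMD3 stood at 0.885 ± 0.108 in HC, 0.564 ± 0.103 in MC and 0.691 ± 0.0993 in LC. PSMD8 stood at 0.868 ± 0.119, 0.63 ± 0.0428 and 0.799 ± 0.0377 in the same diets. With scaling to the core both passed limma's test in HC minus MC (log2 0.65, adjusted p = 0.00645, and log2 0.45, adjusted p = 0.0261). Without that scaling neither passed (log2 0.17, adjusted p = 0.368, and log2 -0.027, adjusted p = 0.918). PSMD13 was spread more widely, at 0.704 ± 0.137 in HC, 0.366 ± 0.0364 in MC and 0.956 ± 0.1404 in LC. So was PSMF1, at 0.184 ± 0.03704, 0.118 ± 0.01098 and 0.234 ± 0.0486. PSMB6 was 2.02 ± 0.0833 times the core median in HC, 1.38 ± 0.0657 times in MC and 1.85 ± 0.267 times in LC. PSMA5 moved the other way, at 0.896 ± 0.0316 in HC, 1.13 ± 0.0452 in MC and 0.834 ± 0.0777 in LC.

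With all libraries scaled to the core median, changes relative to the core could be tested, and the median of all genes then moved to -0.55 in MC minus LC and 0.302 in HC minus MC. In MC minus LC 1 member rose, PSMA5 (log2 0.44, adjusted p = 0.0134), and 15 fell, against 59.8% of all genes called. PSMA5 and the falling PSMA2, PSMA6, PSMB1, PSMB4 and PSMB6 are core genes, set against a median that they help to form. That median follows the core genes in the middle by level: PSMA7 changed by 0.64 before the scaling and 0.011 after. The median change of the 14 core genes before the scaling was 0.38. PSMD13 (log2 -1.36, adjusted p = 7.25e-06), PSMG4 (log2 -1.24, adjusted p = 8.58e-06), PSMF1 (log2 -0.93, adjusted p = 4.65e-04) and PSME1 (log2 -0.76, adjusted p = 0.00101) fell furthest relative to the core. In HC minus MC 9 members rose relative to the core and 0 fell, against 32.1% of all genes called, with PSMG4 (log2 0.94) and PSMD13 (log2 0.92) first. PSMB4, PSMB5 and PSMB6 among these rises are core genes too. In HC minus LC 2 fell, PSMC6 (log2 -0.46) and PSMC3IP (log2 -0.8998), against 23.2% of all genes called.

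The spread within a diet differed between genes and diets. The coefficient of variation over the 3 libraries had a median of 7.27% in HC, 5.99% in MC and 17.1% in LC. In LC it was highest for PSMB3 at 28.8% and PSMB6 at 28.4%, where LC1 was low, and low for PSME3 at 1.47% and PSMF1 at 1.62%. In HC it was highest for PSMC1 at 23.4%, PSMA4 at 22.7% and PSMC5 at 21.4%. PSMC5, an ATPase, had 51.8, 78.4 and 75.9 FPKM in HC, lowest in HC1, whereas PSMA4 was highest in HC1, so the spread within HC did not run one way across the complex.

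Of 21 proteasome partners tested outside the PSM names 3 rose and 2 fell in MC minus LC. That is 23.8% of the list, against 33.4% of all genes called, with a median log2 change of 0.15. The deubiquitinases of the 19S particle that stand outside the PSM names both rose. USP14, which trims ubiquitin at the base, had 14.4, 14.6 and 15.9 FPKM in HC, 26.5, 22.1 and 23.9 FPKM in MC and 17.3, 15.3 and 13.995 FPKM in LC. It changed in both contrasts (log2 change 0.61 ± 0.12, adjusted p = 0.00249 in MC minus LC, log2 change -0.66 ± 0.12, adjusted p = 0.00307 in HC minus MC). UCHL5 had 32.2 ± 2.54 FPKM in HC, 45.1 ± 1.97 FPKM in MC and 34.97 ± 2.004 FPKM in LC (SD, n = 3 each) and rose in MC minus LC (log2 change 0.36 ± 0.12, adjusted p = 0.0334) and fell in HC minus MC (log2 change -0.48 ± 0.12, adjusted p = 0.0127). ADRM1, the ubiquitin receptor that anchors UCHL5, rose in MC minus LC (log2 change 0.52 ± 0.17, adjusted p = 0.0324).

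POMP, the chaperone that matures the core, did not pass, with 207 ± 40.2 FPKM in HC, 234 ± 29.6 FPKM in MC and 201 ± 29.6 FPKM in LC (SD, n = 3 each, adjusted p = 0.377 in MC minus LC). NFE2L1, a transcription factor that raises proteasome genes when the proteasome is inhibited, had 29.8 ± 1.45 FPKM in HC, 32.3 ± 3.897 FPKM in MC and 45.7 ± 5.21 FPKM in LC (SD, n = 3 each). It fell in HC minus LC (log2 change -0.59 ± 0.13, adjusted p = 0.00737) and in MC minus LC (log2 change -0.49 ± 0.13, adjusted p = 0.0147). DDI2, the protease that activates NFE2L1, fell in MC minus LC (log2 change -0.65 ± 0.22, adjusted p = 0.0386). Among the 21 partners 4 fell and 0 rose in HC minus LC. Of all genes 25.2% were called in that contrast, 7.79% higher and 17.4% lower in HC. Besides NFE2L1, the partners that fell were NFE2L2 (log2 -0.49), UBQLN2 (log2 -0.39) and PAAF1 (log2 -0.37).

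Of 12 genes of ubiquitin supply and extraction 16.7% passed in MC minus LC, against 33.4% of all genes, with a median log2 change of 0.044. NPLOC4, a cofactor of the segregase VCP, rose (log2 change 0.37 ± 0.11, adjusted p = 0.0265). UBA6, an enzyme that activates ubiquitin, fell in HC minus MC (log2 change -0.498 ± 0.14, adjusted p = 0.0238), where 16.7% of the list passed, against 25.0% of all genes. Of the same 12 genes 0 passed limma's adjusted test in HC minus LC, against 25.2% of all genes, and 2 had an unadjusted p under 0.05. Of 9 genes of the COP9 signalosome, a complex built like the lid, 1 rose and 0 fell in MC minus LC, COPS3 (log2 change 0.35 ± 0.12, adjusted p = 0.0494). That is 11.1% of the list, against 33.4% of all genes, with a median of 0.196. COPS8 fell in HC minus MC (log2 change -0.46 ± 0.11, adjusted p = 0.0119).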

How the data were processed

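RNA of goat rumen epithelium was sequenced in 9 libraries, 3 per diet. The authors deposited 1 table of FPKM values per library. Per the submitters' processing notes, Bowtie 1.2.0 and Cufflinks 2.2.1 were used. The genome build is not given in the sources used here. Read depth is unknown, so no counting interval could be set. The HC tables hold empty gene lines that the others lack, and names that a spreadsheet had turned into numbers were dropped. Lines of the same gene were summed. Gene positions come from the files, shifted to count from 1, with chromosome numbers taken from the RefSeq annotation.

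Genes with at least 1 FPKM in 3 libraries and listed in all 9 files were tested, 11668 in all, including the 43 members, while 211 others passed the level filter without being listed everywhere. Values were analysed as log2(FPKM + 1), so changes of low genes are understated, in 1 fit of all libraries with limma 3.58.1 in R 4.3.3 (trended, robust, 6 residual degrees of freedom). P-values are two-sided, Benjamini-Hochberg adjusted over all genes tested, and called at 0.05. The fit was tested on simulated data. Ratios of catalytic pairs were compared with exact permutation tests.

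Members described library by library were the 12 with the lowest F test p, the catalytic, activator and inhibitor genes, and the highest and lowest of each class, and others were named where counts called for it. The members and lists were chosen with earlier results of these data known. Alternatives covered pseudocount, filter, scaling, moderation, quality weights, replicate block, a muscle covariate, fewer libraries and an effect threshold. The values of 1 gene of ubiquitin supply are not reported here.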

Additional observations from a re-analysis of the deposited data

How the results depend on the processing

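Of the calls among the 43 genes, 8 of 19 in MC minus LC, 4 of 14 in HC minus MC and 1 of 3 in HC minus LC held in all 23 alternatives other than scaling to the core genes. The number of members past the test in HC minus MC was 24 with libraries scaled to the same sum, 28 with library quality weights, 8 with the muscle covariate, 9 with a log2 change of at least 0.5 required and 9 with scaling to the core. All genes called in HC minus MC moved too, from 2917 to 3306 with the same sum, 6590 with quality weights, 1076 with the muscle covariate, 2192 with the effect size and 3751 with scaling to the core. In HC minus LC it was 6 with median-of-ratios scaling, 10 with quality weights, 1 with the muscle covariate and 1 with LC3 as the only LC library, and in MC minus LC it was 9 with LC3 alone. All genes called in HC minus LC were 2823, 5889, 2118 and 1379 under the same 4 settings, against 2939, and 2322 in MC minus LC with LC3 alone, against 3894. The F test passed 31 members with the same sum and 29 with quality weights. Leaving out 1 library gave 13 to 20 members in MC minus LC, 6 to 22 in HC minus MC, 1 to 4 in HC minus LC and 12 to 22 in the F test. Library numbers were not taken to pair the libraries, since the labels do not state a pairing. Same-numbered libraries of different diets correlated at -0.076 to 0.504 in their deviations, 6 of 9 pairs over 0.1. All 3 pairs among the libraries numbered 1 were over 0.1 (0.29 to 0.4496). Libraries of different numbers and diets correlated at -0.494 (MC3 and LC1) to 0.31 (HC2 and MC3). Not every library correlated best with its own number. Whether libraries of the same number share an effect was not tested. With the replicate block 24 members passed in MC minus LC, 16 in HC minus MC, 3 in HC minus LC and 21 in the F test, and all genes called were 4613, 3871, 3751 and 6418 under the block.

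Scaling to the core, which sets the core median equal in all libraries, turned the MC minus LC change of PSMA4 to -0.042, PSMB2 to -0.17, PSMB3 to -0.066, PSMC2 to -0.16, PSMC4 to -0.094, PSMD6 to -0.026, PSMD10 to -0.049, PSMD12 to -0.15 and PSMG2 to -0.23, and the HC minus MC change of PSMD10 to 0.031 and PSME3 to 0.072. Depth is unknown, so precision rests on 3 libraries per diet alone.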

Other observations

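Within HC the members did not move as a block. Genes named here were chosen after their values were seen. PSMC1, PSMC5, PSMD2 and PSMD3 were lowest in HC1 of the HC libraries, and in MC they were highest in MC3. PSMC5 had 51.8, 78.4 and 75.9 FPKM in HC1 to HC3 and 63.6, 70.99 and 82.2 FPKM in MC1 to MC3. PSMD3 had 94.2, 108 and 106 FPKM and 86.2, 82.9 and 105 FPKM in the same libraries. PSMA4 and PSMC6 ran the other way, highest in HC1 and lowest in MC3. PSMC6 had 41.8, 31.7 and 36.2 FPKM in HC1 to HC3 and 51.8, 52.4 and 46.5 FPKM in MC1 to MC3. The relation was not tested.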
